A study of Mus musculus with 12 samples.

Results

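The replication-dependent histone genes are the clustered genes that earlier mouse nomenclature calls Hist1h, Hist2h, Hist3h and Hist4h. Members were found by that symbol pattern in the GENCODE M21 annotation, which holds 70 such genes, 67 of them protein coding, and 65 of the 70 had a row among the 18208 genes of the RNA-seq table. Only 7 of those rows carry the older symbol (Hist1h2an, Hist1h2ao, Hist1h2bp, Hist1h2bq, Hist1h2br, Hist1h4m and Hist1h4n). The other 58 stand under current symbols and were matched through RefSeq's list of older names, so that Hist1h4b is H4c2 and Hist1h2bj is H2bc11. The 65 genes comprise 6 of class H1, 16 of H2A, 18 of H2B, 12 of H3 and 13 of H4. By location, 53 belong to the Hist1 cluster on chromosome 13, 9 to Hist2 on chromosome 3, 2 to Hist3 on chromosome 11 and 1 to Hist4 on chromosome 6.

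The study paired RNA-seq with cross-linking immunoprecipitation (CLIP) of hnRNP H, an RNA-binding protein that recognises runs of G, in the whole striatum of wild-type C57BL/6J mice aged postnatal day 50 to 100. These mice were offspring of fathers heterozygous for an Hnrnph1 mutation and C57BL/6J mothers. All were given saline on days 1 and 2. On day 3, one group was given saline again and the other methamphetamine at 2 mg/kg intraperitoneally, and striata were taken 30 min later. Each group had 3 pools, and each pool held the striata of 4 mice, 2 females and 2 males. A portion of each pool was set aside before crosslinking for RNA-seq, so that both assays describe the same tissue. A pool averages its animals, and in bulk tissue fewer cells of a type and less RNA per cell cannot be told apart.

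Replication-dependent histone genes supply the core histones H2A, H2B, H3 and H4, which form the nucleosome, and the linker histone H1, which binds the DNA where it enters and leaves. Most of their messenger RNAs are made during S phase and end in a conserved stem-loop in place of a poly(A) tail. The stem-loop binding protein SLBP and the U7 small nuclear RNP direct the cut that forms this end. Neurons have left the cell cycle, and adult striatum borders the subventricular zone, where neuroblasts are still born. The labels name total RNA as the starting material, which includes messages without a poly(A) tail.

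The stem-loop is shown because it defines these messages and because its bases separated the H4 genes from the others. The search was for a hairpin of 16 bases on the sense strand, with a stem of 6 bases that opens with GG and closes with CT, a loop of 4 bases that opens with TTT, and a fully paired second arm. Annotated transcripts of 42 of the 65 genes held it, against 5 of 21799 other protein-coding genes (0.0229%). The 5 forms below stood 21 to 58 bases after the coding end (median 31), and capitals mark the whole hairpin.
H2bc11, and 23 further H1, H2A, H2B and H3 genes: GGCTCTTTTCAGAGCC
H3c7, and 5 further H1, H2B and H3 genes: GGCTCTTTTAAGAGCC
H2ac20: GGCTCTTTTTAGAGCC
H4c3, and 6 further H4 genes: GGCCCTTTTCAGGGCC
H4c2 and H4c11: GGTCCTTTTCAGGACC
A sixth form, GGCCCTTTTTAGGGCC, was present in H4c9 and H4c14. No H4 gene carried one of the first 3 forms, and no gene of another class carried an H4 form. Among the 45 genes whose annotated transcripts continue for at least 70 bases after the coding end, 39 held the hairpin. Some of the 23 genes without a match, such as H4c12, are annotated with little or no sequence after the coding region, so the search could not reach their ends.

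The promoters also differed by class. RefSeq gives promoter windows (250 bases before to 50 after the start, GRCm38.p6) for 60 of the 65 genes, 61 windows in all because H2bc6 has 2. On either strand, the octamer ATTTGCAT was found in 7 of 16 H2A and 7 of 17 H2B windows, and in none of the 6 H1, 10 H3 and 12 H4 windows. It was found in 1.74% of all 32851 promoter windows. Windows of neighbouring H2A and H2B genes on opposite strands can overlap. The same motif can therefore count in both classes, as the octamer does for H2ac8 and H2bc8. The box CCAAT was present in every H1, H2A, H2B and H3 window but in 3 of 12 H4 windows (25%), against 37.4% of all windows. TATAAA was present in 35 of the 61 windows (57.4%), against 13.6% of all. The 130 bases up to the RefSeq start are printed for the gene with the highest RNA level in each class, and for H2bc8 as an example with the octamer. Capitals mark the 3 motifs on either strand, and these motifs do not overlap one another here.
H1f2 (chr13:23738677-23738806, plus strand): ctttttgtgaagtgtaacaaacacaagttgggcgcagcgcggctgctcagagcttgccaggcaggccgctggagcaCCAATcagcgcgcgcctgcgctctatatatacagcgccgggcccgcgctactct
H2ac18 (chr3:96245367-96245496, plus strand): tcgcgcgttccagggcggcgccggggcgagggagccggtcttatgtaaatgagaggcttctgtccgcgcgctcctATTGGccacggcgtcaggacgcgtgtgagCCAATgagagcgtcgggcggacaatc
H2bc11 (chr13:22043068-22043197, plus strand): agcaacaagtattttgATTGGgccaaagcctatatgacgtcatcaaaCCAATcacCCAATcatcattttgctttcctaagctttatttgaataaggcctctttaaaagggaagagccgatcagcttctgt
H3c2 (chr13:23752215-23752344, plus strand): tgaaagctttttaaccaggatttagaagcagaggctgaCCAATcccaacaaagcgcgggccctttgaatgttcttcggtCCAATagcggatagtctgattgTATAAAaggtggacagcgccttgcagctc
H4c2 (chr13:23756807-23756936, plus strand): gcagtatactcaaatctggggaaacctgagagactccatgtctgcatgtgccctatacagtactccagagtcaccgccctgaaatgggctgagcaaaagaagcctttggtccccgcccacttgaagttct
H2bc8 (chr13:23571270-23571399, plus strand): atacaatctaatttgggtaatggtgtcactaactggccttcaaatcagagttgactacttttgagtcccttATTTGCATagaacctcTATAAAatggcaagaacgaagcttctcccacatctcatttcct

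RNA levels are given as log2 CPM, the deposited unit, in which a step of 1 is a doubling of the CPM, the reads as scaled by the authors to library size. The libraries held 3935160 to 5091839 reads, of which 0.578% to 0.95% fell in the 65 genes (27164 to 41000 reads). All 65 genes had reads, 64 of them at least 60 reads over the 6 libraries, and 49 more than 100 reads in every library. The gene under 60 reads was H2ac1 (Hist1h2aa), with 4, 2 and 3 reads in the saline pools and 2, 4 and 1 in the methamphetamine pools. The summed levels ordered the classes H4, H2B, H3, H2A and H1 in all 6 libraries. H4 genes took 34.9% to 50.8% of the histone reads, H2B genes 19.1% to 30.0%, H3 genes 15.0% to 19.4%, H2A genes 9.91% to 11.7% and H1 genes 4.41% to 6.36%. The Hist1 cluster alone took 89.2% to 91.8%.

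Between genes, levels are compared per kilobase of coding length, since H4 coding regions are 309 bases long and H1 coding regions 627 to 669. The median was 848 CPM per kb over the H4 genes, 275 over H3, 185 over H2B, 114 over H2A and 93.7 over H1. H4c2 (Hist1h4b, chr13:23757013-23757409, plus strand, mm10) was the highest of the 65 at 2203 CPM per kb. It was followed by H4c3 (Hist1h4c) at 1517, H4c12 (Hist1h4k) at 1503 and H4c6 (Hist1h4f) at 1233. In class H2B the highest was H2bc11 (Hist1h2bj, chr13:22043214-22043676, plus strand) at 872, then Hist1h2bq at 717 and H2bc4 (Hist1h2bc) at 562. In class H3 they were H3c2 (Hist1h3b, chr13:23752267-23752886, plus strand) at 635, H3c4 (Hist1h3d) at 567 and H3c7 (Hist1h3f) at 399. In class H2A, H2ac18 (Hist2h2aa1, chr3:96245497-96246082, plus strand) stood at 535 and Hist1h2ao at 254. Among the linker histones, H1f2 (Hist1h1c, chr13:23738808-23740367, plus strand) stood at 313, H1f4 (Hist1h1e) at 174 and H1f3 (Hist1h1d) at 160. H1f6 (Hist1h1t), the testis form of H1, was the lowest H1 gene at 6.93 CPM per kb. Per kb of all annotated exon, UTRs included, some of these ranks differ. H1f3 then stood at 14.3, below H1f1 at 23.7, H4c3 at 572, below H4c12 at 1488 and H4c6 at 974, and H3c4 at 185. H4c2 was again the highest at 1715, and the class medians kept their order, from 503 for H4 to 19.0 for H1.

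Many of these genes are near copies, and how the authors' counting treated reads that fit several genes is not given in the sources used here. For 28 of the 65 genes, more than 50% of the 50-base stretches of their transcripts also occur in another clustered histone gene. The share was 97.3% for Hist1h2bq, 89.2% for H2ac18, 89.8% for Hist1h4m and 85.6% for Hist1h4n, but 8.54% for H1f2, 19.6% for H4c3 and 10.2% for H4c4. H1f4 (32.0%) overlaps an annotated transcript of H2bc6. Reads may therefore be split between near copies, and levels of single genes with high shares are uncertain.

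H2A and H2B genes lie head to head, on opposite strands, in 11 pairs whose annotated starts are at most 500 bases apart. The H2B gene was higher per kb in all 6 libraries in 8 of the 11 pairs. The widest gap was between H2ac11 (30.6 CPM per kb) and H2bc11 (872), a ratio of 28.5. H2ac1, which had few reads, and H2bc1 differed 25.9-fold. H2ac13 and H2bc13 differed 13.6-fold, and H2ac6 and H2bc4 7.67-fold. In 1 pair the order was turned in all 6 libraries: H2ac20 stood at 244 CPM per kb and H2bc21 at 17.7. H2ac15 with H2bc15 and H2ac8 with H2bc8 lay within 1.11-fold, with the H2B gene higher in 4 and 3 of the 6 libraries. Per kb of annotated exon, the H2B gene was higher in all 6 libraries in 7 of the 11 pairs. The ratio of H2bc4 to H2ac6 was then 16.0, that of H2bc11 to H2ac11 28.9, and that of Hist1h2bq to Hist1h2ao 0.692. The widest gap on this measure was in the turned pair, with a ratio of H2bc21 to H2ac20 of 0.0141. The paired genes therefore had unequal RNA levels in most pairs, within the limit that near copies may share reads.

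**Figure D1:**
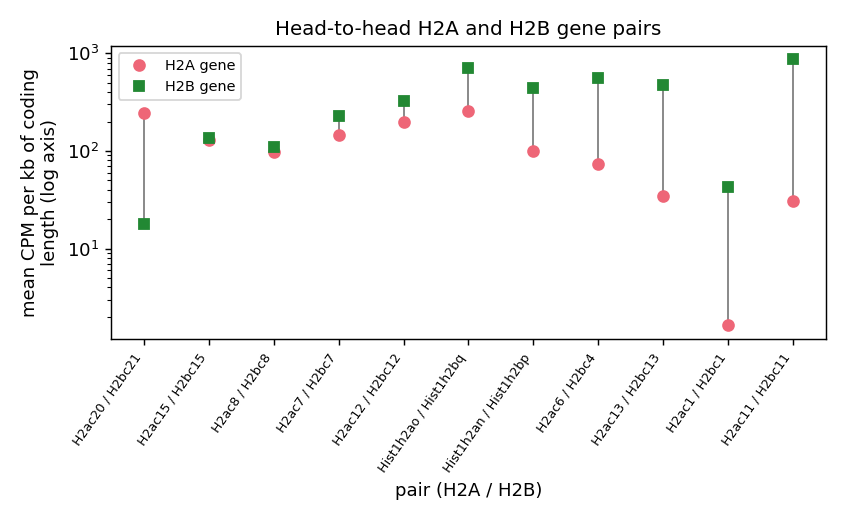
Mean CPM per kb of coding length (log axis) over 6 RNA-seq libraries for the H2A gene (circle) and the H2B gene (square) of each of 11 head-to-head pairs, ordered by their ratio. The pair at the left, H2ac20 and H2bc21, has the H2A gene higher, and the ratio at the right, for H2ac11 and H2bc11, is 28.5.

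The first question of the design was whether histone RNA differed 30 min after methamphetamine. By limma over all 18208 genes with Benjamini-Hochberg adjustment, 0 genes passed an adjusted p of 0.05 (0%), so 0 of the 65 histone genes were called. At an unadjusted p under 0.05, 276 genes stood in the whole table (1.52%) and 0 of the 65. The smallest adjusted p of a histone gene was 0.9998. The treatment groups overlapped for every one of the 65 genes, whereas they did not overlap for 6.01% of all genes. The median log2 change of the 65 genes was -0.15, with 24 positive and 41 negative, and 0.002 over all genes. For the 7 rows with older symbols it was -0.21, with 1 positive and 6 negative.

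Summed by class, the H4 level was 4651, 2912 and 3409 CPM in the saline pools and 3036, 3493 and 3473 CPM in the methamphetamine pools. The means were 3657 ± 895 and 3334 ± 258 (SD, n = 3), and the groups overlapped. H2B summed to 2261, 1095 and 2930 CPM after saline and to 1557, 2063 and 1544 CPM after methamphetamine, so that saline held both the lowest and the highest pool. H3 summed to 2001, 860 and 1894 CPM against 1049, 1549 and 1485 CPM, and H2A to 1127, 579 and 992 CPM against 660, 876 and 923 CPM. H1 was 463, 292 and 557 CPM after saline and 355, 542 and 482 CPM after methamphetamine. In all 5 classes saline pool 2 was the lowest of the 6 libraries, and the saline SD was larger than the methamphetamine SD.

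**Figure D2:**
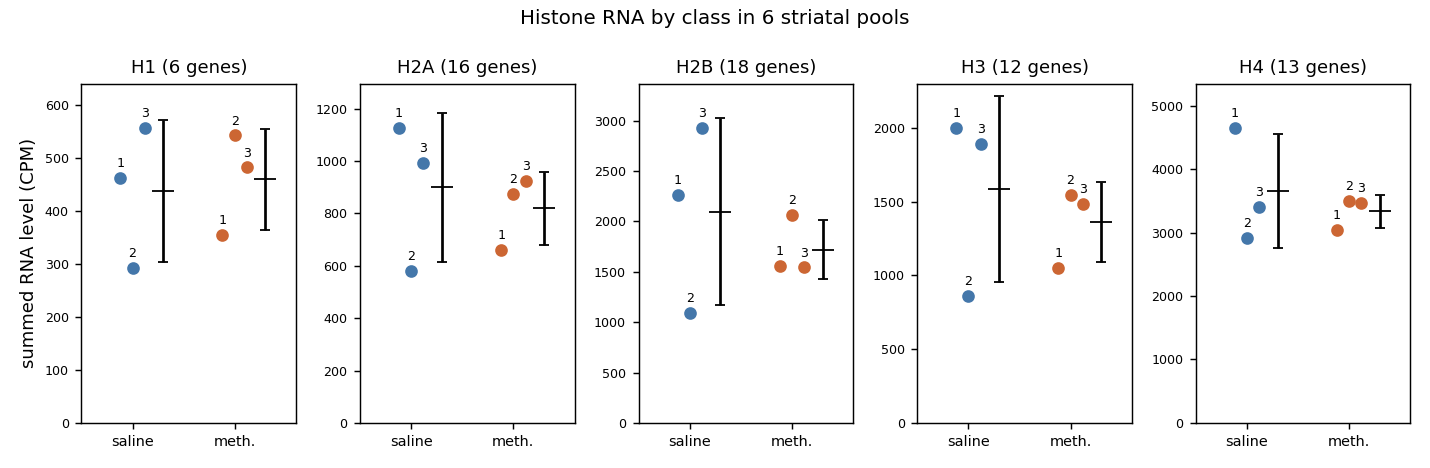
Summed CPM of the genes of each histone class in 3 saline pools (blue) and 3 methamphetamine pools (orange, "meth."), with the pool number above each point and bars for mean ± SD. Each panel has its own axis from 0, and saline pool 2 is the lowest point in all 5 panels.

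In class H4, H4c2 was measured at log2 CPM 9.90, 9.09 and 9.49 in the saline pools and 9.19, 9.50 and 9.13 after methamphetamine. Its change was -0.22 ± 0.24 (SE), less than the spread between pools. H4c3 changed by -0.18 ± 0.22 and H4c12 by -0.18 ± 0.22, with saline pool 1 the highest library for both. H4c9 (Hist1h4i) had one of the 3 smallest unadjusted p-values of the 65 genes, 0.229 by limma (adjusted p = 0.9998). It stood at 6.47, 6.12 and 6.08 after saline and 6.30, 6.26 and 6.96 after methamphetamine, with only methamphetamine pool 3 above all saline pools.

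In class H2B, H2bc11 stood at 8.74, 7.37 and 9.15 after saline and 7.92, 8.56 and 7.60 after methamphetamine, a change of -0.39 ± 0.43. Hist1h2bq changed by -0.12 ± 0.35 and H2bc4 by -0.11 ± 0.28. Among the 64 genes with at least 60 reads, H2bc9 (Hist1h2bh) had the most negative change, -0.42 ± 0.34, from 7.40, 6.27 and 7.61 to 6.79, 7.00 and 6.23. The smallest p-value of the 65 belonged to H2bc8 (Hist1h2bg), at 5.0, 4.98 and 5.49 after saline and 5.39, 5.21 and 5.93 after methamphetamine. Its change was 0.35 ± 0.24, with an unadjusted limma p of 0.172 (adjusted p = 0.9998), and the groups overlapped. H2bc18 (Hist2h2bb) followed with 0.34 ± 0.25, unadjusted p = 0.201 by limma, from 3.86, 4.16 and 3.59 to 4.48, 3.88 and 4.28.

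In class H3, H3c2 stood at 8.56, 7.15 and 8.47 after saline and 7.50, 8.11 and 7.81 after methamphetamine (change -0.26 ± 0.35). H3c4 followed it library by library, at 8.39, 7.01 and 8.26 and then 7.32, 7.94 and 7.73. H3c14 (Hist2h3c1), of the Hist2 cluster, changed by 0.10 ± 0.22. In class H2A, H2ac18 changed by 0.20 ± 0.20, Hist1h2ao by -0.20 ± 0.33 and H2ac20 (Hist2h2ac) by -0.27 ± 0.30, all within the spread between pools.

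Of the linker histones, H1f2 was 7.69, 7.08 and 8.02 after saline and 7.31, 8.05 and 7.42 after methamphetamine, with means of 7.60 ± 0.48 and 7.59 ± 0.40 (SD, n = 3). H1f4 changed by 0.29 ± 0.26 and H1f3 by 0.07 ± 0.28. The most positive change of the 64 genes was that of H1f5 (Hist1h1b), a linker histone of proliferating cells, at 0.41 ± 0.46. It rests on 1 pool: H1f5 had 25, 28 and 17 reads after saline, 22 and 28 reads in methamphetamine pools 1 and 2, and 77 reads in pool 3. Without methamphetamine pool 3 its change was -0.08, that of H2bc8 0.14 and that of H4c9 0.06.

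**Figure D3:**
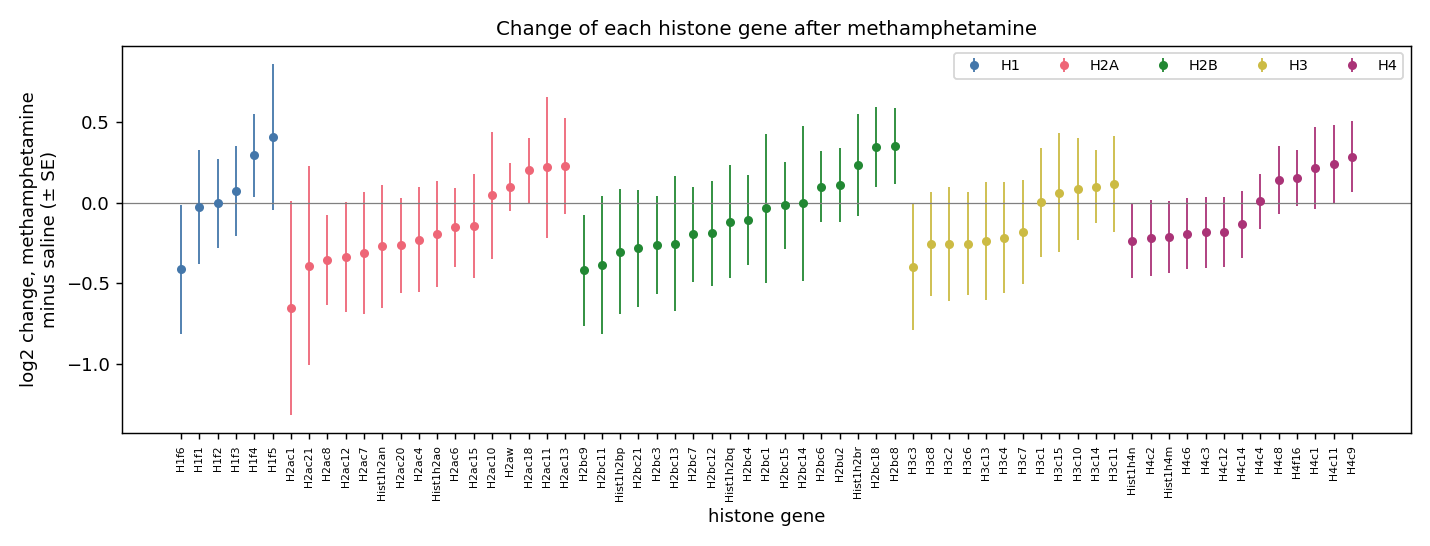
Log2 change, methamphetamine minus saline, for the 65 histone genes by class (limma, 3 pools per group), with bars of 1 SE and a grey line at 0. Within each class the genes are sorted by the change, and the values of the 64 genes with at least 60 reads lie between -0.42 and 0.41.

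Leaving out 1 library changed the unadjusted counts. Without saline pool 2, 22 of the 65 genes (33.8%) had an unadjusted limma p under 0.05, all lower after methamphetamine, where 2.53% of all genes were lower at that threshold. These were 7 H2A, 8 H2B and 7 H3 genes, and 0 genes of H1 and H4. Their adjusted p-values were 0.769 or higher, so none was called. In that fit, treatment partly coincided with the library sets described below. Saline pools 1 and 3 both belong to one set, and methamphetamine pools 1 and 3 to the other. With the set as a covariate and all 6 libraries, 0 of the 65 had an unadjusted limma p under 0.05, and their median change was 0.09. Saline pool 2 was the lowest of the 6 libraries for 48 of the 65 genes (73.8%) and for 15.3% of the 13177 genes with at least 60 reads. It was the highest library for 0 of the 65, against 19.4% of those genes.

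The libraries also fell into sets that cross the treatment. The first principal component of 7797 genes, computed without the histone genes, held 65.8% of the variance and put saline pools 1 and 3 and methamphetamine pool 2 on one side. These 3 libraries were all above the other 3 for 30 of the 65 histone genes, against 18.9% of all genes, and all below them for 1 (H2bc18), against 19.9% of all genes. The 30 comprised 10 H2B, 8 H2A, 6 H3, 5 H4 and 1 H1 gene. Summed H2B ranged from 2063 to 2930 CPM in the first 3 libraries and from 1095 to 1557 CPM in the others. Summed H4 overlapped between them, at 3409 to 4651 and 2912 to 3473 CPM. So did summed H2A, at 876 to 1127 and 579 to 923 CPM, and summed H1, at 463 to 557 and 292 to 482 CPM. The ratio of the means was 1.73 for H2B, 1.6 for H3, 1.39 for H2A, 1.38 for H1 and 1.23 for H4. With plain library totals in place of the authors' scaling, it was 1.5, 1.40, 1.21, 1.21 and 1.07. Summed H3 then overlapped as well, at 1389 to 1810 and 867 to 1512 CPM. No label names a batch for these sets.

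The same 3 libraries were higher for striatal neuron markers, with Ppp1r1b, Adcy5 and 10 further genes summing to 11559 to 13046 CPM against 8115 to 9013 CPM. These markers, which define the labelled tissue, were present in every library. Microglial markers (9 genes) were lower in these libraries, at 328 to 356 CPM against 392 to 422 CPM. Vessel and blood markers (6 genes) overlapped, at 374 to 475 CPM against 435 to 827 CPM. Hba-a1, the highest of the 6 (log2 CPM 8.65, then Flt1 at 5.26), weighs heavily in this sum. Oligodendrocyte markers (8 genes) overlapped, at 5056 to 12351 CPM against 6846 to 12316 CPM, as did precursor markers (8 genes), at 589 to 1238 CPM against 635 to 936 CPM. Cortical excitatory markers (12 genes) overlapped when summed, at 1224 to 1521 CPM against 1379 to 1651 CPM. Nrgn, the highest of the 12 (log2 CPM 9.76, then Slc17a7 at 7.77), weighs heavily in this sum. Its mean was 9.90 in the first 3 libraries and 9.61 in the others. The first 3 libraries were all higher for 1 of the 12. For 5 of the 12 the other 3 libraries were all higher: Slc17a7, a glutamate transporter, had 618, 230 and 979 reads in the first 3 libraries and 1597, 1363 and 2742 in the others. Choroid plexus markers (12 genes) summed to 5367 CPM in methamphetamine pool 2 and to 146 to 287 CPM in the other 5 libraries. No gene of these lists was at 0 in all libraries. Their part in the histone differences was not tested.

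In methamphetamine pool 3, 17 of the 64 histone genes with at least 60 reads (26.6%) stood more than 0.5 log2 units above their mean in the other 5 libraries, against 11.8% of all such genes. In the other direction, 6 of the 64 (9.38%) stood more than 0.5 below, as did 1519 of all 13177 such genes. This pool was the highest library for 26.2% of the 65 genes and for 20.5% of all genes with at least 60 reads. H1f5 was 1.42 above, H2ac11 (Hist1h2ag) 1.32 above and H4c1 (Hist1h4a) 0.81 above. The difference was -1.76 for H2ac21, -0.79 for H2bc9 and -0.75 for H2bc11. H4c1 had 575, 610 and 454 reads after saline, 619 and 568 reads in methamphetamine pools 1 and 2, and 1188 reads in pool 3. By contrast, H4c2 had 2908 reads in pool 3, close to its 2914 and 3169 reads in pools 1 and 2. Genes of 1 class thus did not move together in this pool. The markers of dividing and newborn cells (11 genes) summed to 585 CPM there, the highest of the 6 libraries, against 426 to 547 CPM in the other 5. Tubb3, the highest of the 11 (log2 CPM 8.11, then Sox11 at 5.87), weighs heavily in this sum. It had 1740 reads there, against 925 in saline pool 1. The 11 did not move together, since Cd24a had 102 reads there and 322 in saline pool 1. Whether these markers bear on the histone values was not tested.

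**Figure D4:**
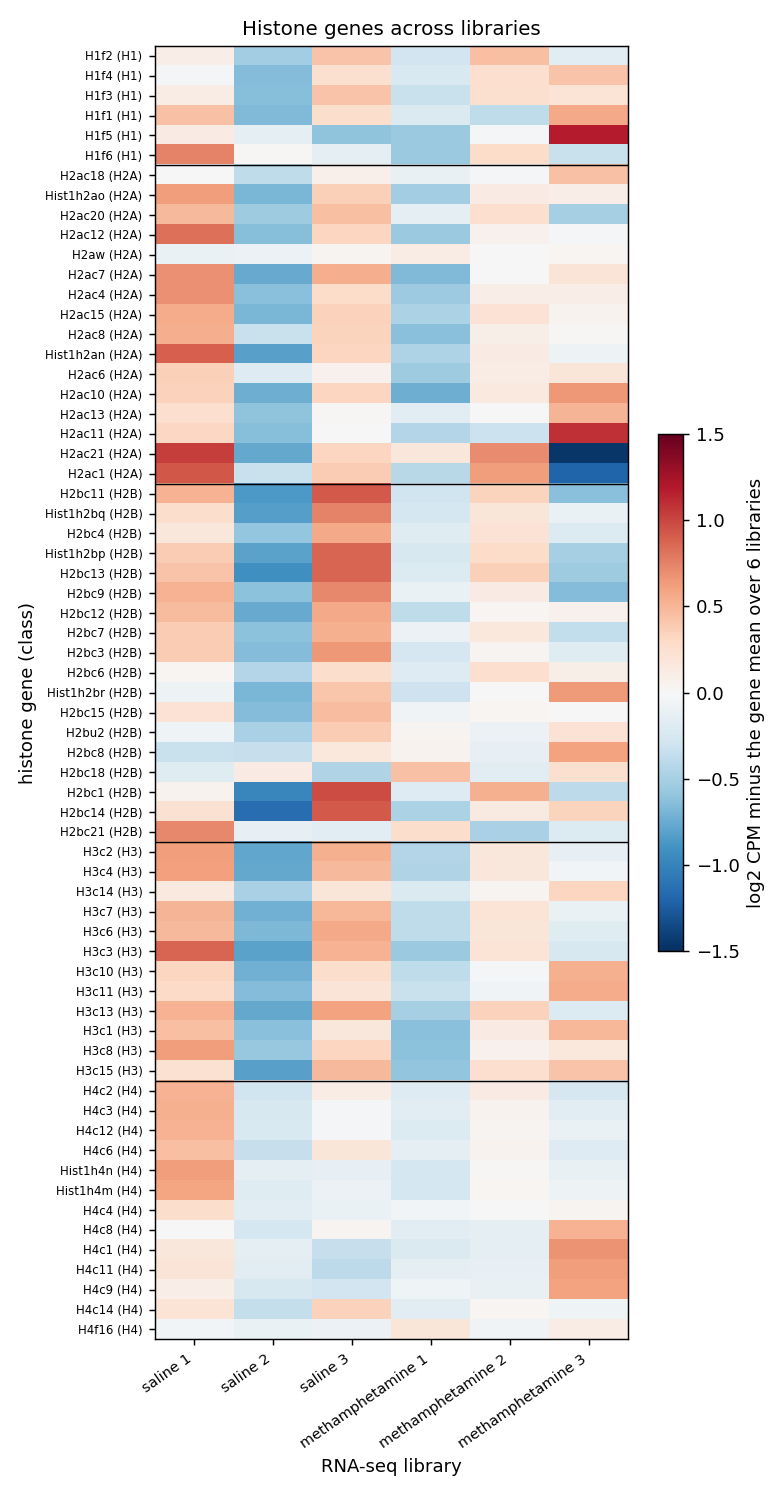
Log2 CPM of each histone gene minus its mean over the 6 RNA-seq libraries (red above, blue below, colours limited at ±1.5), with genes ordered by class and by mean level and lines between classes. Saline pool 2 is the lowest library for 48 of the 65 genes, and methamphetamine pool 3 is red for H1f5, H2ac11 and H4c1.

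The factors that make or degrade histone messages gave no call in the same fit. Of 15 genes for histone RNA processing and regulation, 0 were called in either direction, 0 had an unadjusted p under 0.05, and the median log2 change was -0.03. Sympk, a scaffold of the cleavage complex, had the highest level at log2 CPM 7.87 (change -0.06 ± 0.23), then Upf1, a helicase of RNA decay, at 7.37 (-0.11 ± 0.18) and Srrt, a cap-binding partner, at 6.98 (-0.10 ± 0.24). Slbp, the stem-loop binding protein, stood at log2 CPM 3.34 and changed by -0.31 ± 0.23 (unadjusted p = 0.212 by limma, adjusted p = 0.9998). Its means were 3.50 ± 0.08 after saline and 3.18 ± 0.06 after methamphetamine (SD, n = 3). These groups did not overlap, as for 6.01% of all genes. Before scaling to library size, Slbp had 42, 50 and 45 reads in the saline pools and 47, 39 and 45 in the methamphetamine pools.

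The replication-independent histone variants, most of which are also made outside S phase from messages with poly(A) tails, likewise gave 0 calls among 11 genes and a median change of 0.07. The 3 highest were H3f3b (log2 CPM 7.17, change 0.25 ± 0.15), H2az1 (6.85, -0.25 ± 0.19) and H1f0 (6.85, 0.15 ± 0.27). Summed over the 11 variants, the level was 645 to 859 CPM after saline and 748 to 771 CPM after methamphetamine. The clustered genes summed to 5738 to 10503 CPM over the 6 libraries.

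Of 20 DNA replication and cell cycle genes, 0 were called, and 1 had an unadjusted p under 0.05. This was Cdc6, which loads the replicative helicase, at -1.24 ± 0.39 (unadjusted p = 0.0114 by limma, adjusted p = 0.9998). It had 22, 20 and 24 reads in the saline pools and 13, 12 and 8 in the methamphetamine pools. The 3 highest, Mcm7, E2f1 and Pcna, changed by 0.01 ± 0.27, 0.18 ± 0.27 and 0.27 ± 0.26. The whole list summed to 106 to 149 CPM, with the highest sum in methamphetamine pool 3, the pool in which H1f5 was highest. Mki67, a marker of cycling cells, had 40, 23 and 32 reads in the saline pools and 35, 30 and 97 in the methamphetamine pools.

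The second question was whether hnRNP H was crosslinked to histone RNA. The CLIP count table listed 147438 distinct positions of about 100 bases, and 34 of them lay in 26 of the 65 histone genes. A position was present for 40.0% of the 65 genes, against 90.8% of 141 other protein-coding genes of similar RNA level (log2 CPM 5.21 to 7.30, the middle range of the histone genes) with a gene span up to 3000 bases. The median span was 572 bases for the histone genes and 2212 for the comparison genes, so length was not matched. The 65 histone genes ran from log2 CPM -0.59 to 9.38, so level was matched only for the middle of their range. CLIP reads that fit several near copies may also be split or lost. Whether the lower share reflects less binding was not tested. The 34 positions held 511 reads in all, out of 423057 to 1635338 peak reads per library. In the saline libraries they held 65, 34 and 146 reads, and in the methamphetamine libraries 116, 61 and 89 reads. As CPM of peak reads this was 61.7, 80.4 and 89.3 against 127.6, 62.3 and 149.5 CPM, and the groups overlapped.

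The CLIP reads and the RNA of the classes are given as shares. The CLIP share pools the reads of libraries that differed up to 3.87-fold in depth, whereas the RNA share is of mean CPM. H4 genes held 24.7% of the histone CLIP reads and 42.7% of the histone RNA, H2B genes 34.8% and 23.3%, H2A genes 16.8% and 10.5%, H3 genes 20.4% and 18%, and H1 genes 3.33% and 5.48%. By library, H4 genes held 7 of 65, 13 of 34 and 19 of 146 histone CLIP reads in saline. In methamphetamine they held 28 of 116, 18 of 61 and 41 of 89, so the H4 share varied widely. The H2B share rested in part on H2bc6, whose positions do not lie within 1 exon, and was 22.0% without it. The H2A share rested mostly on H2aw, whose positions are also listed under other genes, and was 5.76% without it. The 3 best-read positions held 30.7% of the reads. A total of 16 of the 34 positions had under 10 reads over the 6 libraries, and 5 had reads in every library.

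Of the 34 positions, 9 were coding, 6 partly coding, 8 in 3′UTRs, 2 in 5′UTRs, and 9 not within 1 annotated exon. The annotated transcripts of H2aw, H2bu2 and H1f2 continue for 1643, 169 and 840 bases after the hairpin. Their 3′UTR positions lie in that stretch, outside a message that ends at the stem-loop. The 3′UTR position of H4c3 overlaps its hairpin, and H2bc21 had no hairpin match. Since hnRNP H recognises G-runs, the coding part of the 2 best-read positions is printed here together with 3 further positions at the start of coding regions or in an authors' list. Runs of 3 or more G are in capitals, on the strand of the transcript.
H4c2 (chr13:23757114-23757213, plus strand): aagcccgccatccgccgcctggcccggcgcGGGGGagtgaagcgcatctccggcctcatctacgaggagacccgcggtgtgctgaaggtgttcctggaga
H3c2 (chr13:23752568-23752667, plus strand): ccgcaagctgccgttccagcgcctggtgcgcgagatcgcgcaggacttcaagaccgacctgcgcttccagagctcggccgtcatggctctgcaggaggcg
H4c2 (coding part of chr13:23757014-23757113, plus strand): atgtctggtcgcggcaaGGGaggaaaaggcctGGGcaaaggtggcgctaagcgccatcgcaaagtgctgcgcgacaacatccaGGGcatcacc
H4c4 (coding part of chr13:23581599-23581698, plus strand): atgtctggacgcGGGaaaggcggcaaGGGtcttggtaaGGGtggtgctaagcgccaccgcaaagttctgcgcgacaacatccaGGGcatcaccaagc
H1f3 (chr13:23555163-23555262, plus strand): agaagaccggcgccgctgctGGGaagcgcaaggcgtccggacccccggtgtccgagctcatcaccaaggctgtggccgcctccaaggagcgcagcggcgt
The sequence of a position could be read for 25 of the 34. GGG was present in 21 of these 25 (84%), against 71.0% of all 24093 exonic positions, and GGGG in 12 (48%), against 36.5%. The H3c2 position, which had the most reads summed over the libraries, holds no GGG, and the first H4c2 position, which was higher by mean CPM (13.1 against 10.6), holds GGGGG.

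The treatments were compared by edgeR's quasi-likelihood test with Benjamini-Hochberg adjustment. Of 10358 positions tested, 0 were called (0%), and 347 had an unadjusted p under 0.05 (3.35%). Of the 34 histone positions, 2 passed the filter on low counts, and neither reached an unadjusted p of 0.05. For the other 32, a difference was not detectable at this depth, and without the filter 0 of the 34 were called.

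The tested H3c2 position had 9, 2 and 21 reads in the saline libraries and 6, 14 and 10 reads in the methamphetamine libraries. As CPM this was 8.70 ± 4.06 and 12.6 ± 5.31 (SD, n = 3). The log2 change by edgeR was 0.63, with an unadjusted p of 0.297 and an adjusted p of 0.9998. The tested H4c2 position had 4, 5 and 10 reads in the saline pools and 15, 5 and 21 in the methamphetamine pools. Its CPM was 7.24 ± 4.13 and 19.0 ± 15.2 (SD over 3 pools), with methamphetamine pool 2 below saline pools 2 and 3. The log2 change by edgeR was 1.73, with an unadjusted p of 0.0876 and an adjusted p of 0.9998. It was 1.02 without methamphetamine pool 3 and 0.62 with the library set described above as a covariate. The change of H3c2 was 0.34 without methamphetamine pool 3 and 0.21 without the read filter. The neighbouring H4c2 position, over the start codon, had 2, 0 and 3 reads in the saline pools and 7, 5 and 3 in the methamphetamine pools. As CPM its groups did not overlap, at 1.90, 0 and 1.83 against 7.70, 5.10 and 5.04. It was below the read filter of the test. In all, the groups did not overlap in CPM at 3 of the 34 histone positions (8.82%), against 7.49% of tested positions. The H4c2 start codon position and H4c3 were higher after methamphetamine, and H3c15 was lower, at 2.85, 2.36 and 3.67 against 0, 2.04 and 1.68 CPM. The share of the histone positions was near that of all tested positions, and most of the 34 had few reads.

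Reads at the other positions varied between libraries. The H2bc6 (Hist1h2be) position chr13:23617571-23617670 on the minus strand had 11, 0 and 19 reads in the saline pools and 1, 4 and 0 in the methamphetamine pools. H2bc6 spans 37455 bases in the annotation and has 5 positions with 84 reads (16.4% of all histone CLIP reads), none within 1 exon. The 3′UTR position of H2bu2 (Hist3h2ba) had 2, 3 and 7 reads in the saline pools and 10, 8 and 2 in the methamphetamine pools. H2bc21 (Hist2h2be), a low gene by RNA, had 1, 8 and 2 reads in the saline pools and 13, 2 and 1 in the methamphetamine pools in its 3′UTR. The 4 positions of H2aw (Hist3h2a) in its 3′UTR held 60 reads, and each is also listed under 1 other gene.

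**Figure D5:**
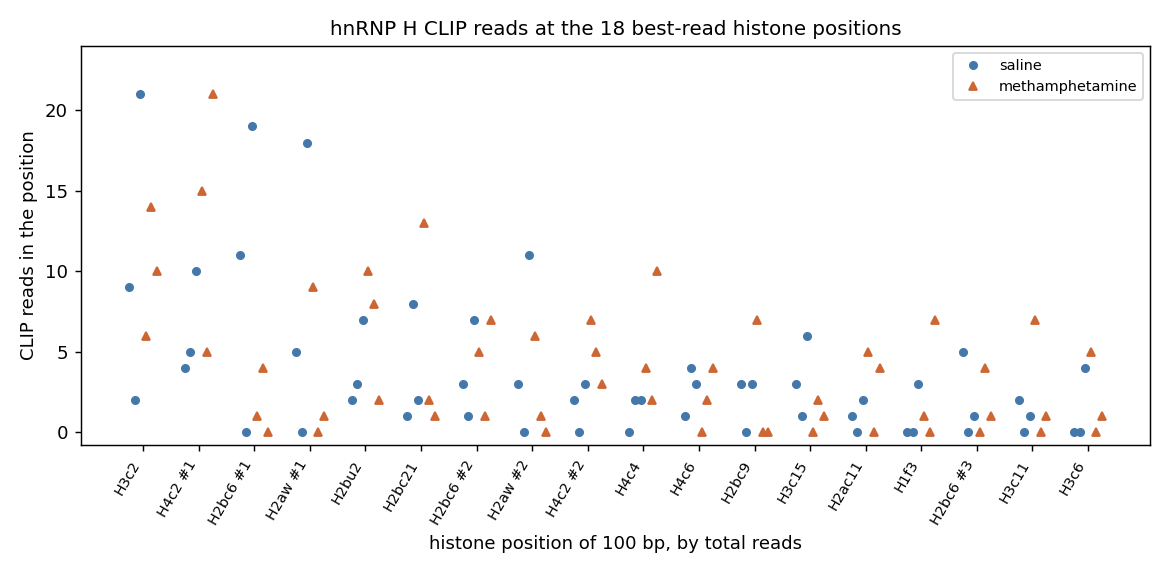
CLIP reads in each library at the 18 histone positions with at least 10 reads in total, ordered by total reads, with saline as circles and methamphetamine as triangles in the order of pool number, and # numbering positions of 1 gene. The most reads in any library is 21, at H3c2 in saline pool 3 and at the first H4c2 position in methamphetamine pool 3.

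In the authors' deposited peak lists, 1 per treatment, the methamphetamine list named 7 histone positions in 6 genes among 9903, and the saline list 8 positions in 7 genes among 9537. Signal values are the authors' values for a peak. Of these positions, 1 was shared, which was 14.3% of the methamphetamine and 12.5% of the saline histone positions. Of all positions, 4729 were shared, 47.8% and 49.6% of the lists. Each list stands for 1 treatment with its pools combined, so the lists carry no replicate error.

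The shared position, chr11:58949421-58949520 in the 3′UTR of H2bu2, had in the authors' deposited table a signal value of 4 for methamphetamine and 2.48 for saline. The methamphetamine list also named coding positions in H1f4, H1f3 (at 2 places), H2bc7 (Hist1h2bf) and H4c4 (Hist1h4d) and a 3′UTR position in H2bc21. In the authors' deposited table the signal was 3.41 at H2bc21 and between 1.27 and 2.77 at the coding positions. The saline list named H2ac12 (Hist1h2ah), H4c6, H2ac20 and H3c15 (Hist2h3c2) at coding or 5′UTR positions, the 3′UTR of H2aw, and 2 intronic positions in H2bc6. In the authors' deposited table their signal ran from 1.30 to 2.69, highest at H2bc6.

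Listing in 1 list did not mean reads in 1 treatment only. The H4c4 position, on the methamphetamine list alone, had 0, 2 and 2 reads in the saline pools and 4, 2 and 10 in the methamphetamine pools. The H4c6 position, on the saline list alone, had 1, 4 and 3 reads in the saline pools and 0, 2 and 4 in the methamphetamine pools. Of the listed histone positions, 3 of 7 and 2 of 8 have no line in the count table, so their reads per library are not analysed here. The RNA of the 12 listed genes gave no call by limma, with every adjusted p at 0.9998. H1f3, H2bc7, H2ac12, H4c4, H4c6, H2aw, H2bu2, H2bc21 and H3c15 changed by 0.07, -0.20, -0.34, 0.01, -0.19, 0.09, 0.11, -0.28 and 0.06 on the log2 scale, and H2bc6 by 0.10.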

How the data were processed

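The RNA-seq values are log2 CPM with 0.5 reads added (voom), as deposited by the authors. Every value converted back to a whole read within 0.01, and these recovered reads are the counts printed. Per the submitters' processing notes, the tools were Trimmomatic, UMI-tools, STAR, bedtools, Subread, featureCounts, limma and edgeR on mm10. Versions, strand setting, treatment of reads that fit several genes and the peak caller are not given in the sources used here. The CLIP table holds deposited counts per peak position, with each position used once. The peak lists hold the authors' score (signal value) and p-value for each peak. The RNA test was limma 3.58.1 with a mean-variance trend, without a replicate block, and the CLIP test edgeR 4.0.16 (TMM, filterByExpr), both in R 4.3.3. Nothing in the labels says more of the pools' independence than that they were separate, so p-values measure the spread between these pools. On simulated data with 200 changed features, limma recovered 88.5% of RNA changes of log2 size 2 and 0% of size 1 among 18208 genes. There, edgeR recovered 99% of CLIP changes of size 4 and 1% of size 2 among 10358 positions. The simulated counts had the same dispersion for every feature and no library sets, so these rates do not give the power of the real comparison. Named genes were the 3 highest of each class, the largest and smallest change among genes with at least 60 reads, the 3 smallest p-values, every gene in a peak list, and the 3 highest or any called of each list. Other genes were named after their values were seen. The members and lists were chosen with earlier results of these data known. Alternatives covered scaling, pseudocount, filters, tools, replicate block, library set and each pool left out. Samples of mutant mice are not analysed here. Intervals for counts would cover counting error only and were not computed.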

Additional observations from a re-analysis of the deposited data

How the results depend on the processing

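Under all 14 alternatives to the RNA test, 0 histone genes passed an adjusted p of 0.05, and 13 of them also left 0 at an unadjusted p under 0.05. Leaving out 1 pool at a time gave 0 to 22 such genes, and the 22 came without saline pool 2. The median log2 change of the 65 genes ranged from -0.37 to 0.05 over these left-out pools, was -0.06 with plain library totals and 0.09 with the library set as a covariate. Deviations of same-numbered libraries correlated at -0.35, -0.82 and -0.49 in RNA and -0.37, -0.55 and -0.08 in CLIP. In both assays 0 libraries correlated best with their own number. Every same-numbered pair fell in opposite library sets, so these values cannot show whether the numbers mark a pairing. With the replicate block the histone counts were 0 for RNA and 0 for CLIP, the median change was -0.15, and calls over all genes stayed at 0. Within the 3 libraries saline 2 and methamphetamine 1 and 3, the summed level was higher after methamphetamine by 1545 CPM over all classes, 212 for H2A, 456 for H2B, 407 for H3 and 343 for H4, against -978, -79.8, -374, -224 and -323 over 6 libraries. Its saline arm is saline pool 2 alone, the lowest library in all 5 classes, so these differences have no test. Within the other 3 libraries, where methamphetamine pool 2 stands alone, they were -1619, -183, -533, -398 and -537. Summed H1 did not follow this change of sign. It was 292 CPM in saline 2 against 355 and 482 CPM in methamphetamine 1 and 3. In the other set it was 463 and 557 CPM in saline 1 and 3 against 542 CPM in methamphetamine 2. Over 6 libraries the H1 difference was 22.7 CPM. Leaving out 1 pool moved these differences over -2446 to -63.5 CPM in all, -50.0 to 82.4 for H1, -240 to 33.9 for H2A, -874 to 43.4 for H2B, -587 to -15.9 for H3 and -696 to 174 for H4. In CLIP, leaving out 1 library gave 0 to 1 histone positions at an unadjusted p under 0.05, the 1 being H4c2 without methamphetamine pool 2, with 0 called in every alternative. Of the listed histone positions, 5 of 8 in the saline list and 5 of 7 in the methamphetamine list had a signal value no lower than their list's median. The 7 rows with older symbols alone, an alternative chosen after seeing the data, gave 0 calls and a median change of -0.21. Depth limits the CLIP comparison, since 32 of the 34 positions were below the read filter.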
